A study of Mus musculus with 90 samples.

Results

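The clock output transcription factors described here are 7 genes that carry the timing of the circadian clock to other genes: Dbp, Tef, Hlf, Nfil3, Bhlhe40, Bhlhe41 and Ciart. They were chosen by symbol, for this known role and with earlier results of these data known. All 7 were found among the 27654 genes of the count tables. Dbp, Tef and Hlf are activators of the PAR bZIP family, which bind D-box elements, and Nfil3 is a repressor of the same elements. Bhlhe40 and Bhlhe41 are repressors that act at E-boxes, the elements bound by CLOCK and BMAL1, and Ciart represses CLOCK-BMAL1 itself. In liver the PAR bZIP factors are known for driving the daily expression of genes of drug, heme and bile acid metabolism.

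The study asked how glucocorticoids and the glucocorticoid receptor (GR, encoded by Nr3c1) shape the liver's response to caloric restriction. Bulk RNA was sequenced from livers of male C57BL/6J mice on chow, in 90 libraries. Of these, 78 formed a time series over 6 zeitgeber times (ZT) from ZT0 to ZT20 in steps of 4 h, and the others formed a diet experiment and a corticosterone experiment at ZT12. The time series held GRfl/fl mice, called WT here, and GRfl/fl x Alb-Cre mice, called GRLKO, each on a night-restricted control diet or on caloric restriction.

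Mice of the diet regimens were housed singly from 12 weeks of age. Restriction was deepened over 4 weeks until calories were 40% lower, and food was given at ZT12. Controls had food removed at ZT0 during their last week. On the control diet, WT groups had 3 mice at ZT0 and ZT4 and 4 mice at each later time, and GRLKO groups had 4 mice at ZT8 and ZT12 and 3 at each other time. On caloric restriction every group had 3 mice. The diet experiment compared 3 WT mice on caloric restriction with 3 WT control mice. The labels give these controls as night-restricted and their titles read AL. For control mice in general, the study describes free feeding until a last week of night-restricted feeding, and the label is followed here. In the corticosterone experiment, WT mice aged 12 weeks at the start were handled for 2 weeks. Then 3 mice received 5 mg/kg corticosterone into the abdomen on 7 days, and 3 control mice received ethanol and Miglyol oil, all under night-restricted feeding. The study's methods give the time of injection as ZT11, and its results give it as ZT12. The labels of these WT mice name no floxed allele, whereas the WT mice of the time series carried it without Cre. Alb-Cre deletes in hepatocytes, so other liver cells of GRLKO mice keep the receptor, and mice with Cre alone were not analysed here.

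Levels are CPM (counts scaled to library size) after scaling within each of the 4 count tables, given as mean ± SD over mice. Library totals ran from 10057544 to 17089004 counts on the control diet, from 14235473 to 20788575 on caloric restriction, from 36442195 to 39492146 in the diet experiment and from 13739631 to 16077943 in the corticosterone experiment. The tables were scaled separately, and in the time series diet coincides with the table and the number series of the libraries, so any batch would too. Levels on the 2 diets of the time series are therefore set side by side, and a test between them is given only as an alternative to the diet experiment at ZT12. Levels are not per transcript length, so no level is compared between genes.

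The targeted gene, Nr3c1, was lower in every GRLKO library than in every WT library of the same diet. On the control diet its level ran from 72.8 CPM (median 86.9) to 117 CPM in 22 WT libraries and from 16.2 CPM (median 21.7) to 28.8 CPM in 20 GRLKO libraries. On caloric restriction it ran from 70.5 CPM (median 94.0) to 113 CPM in 18 WT libraries and from 21.6 CPM (median 25.0) to 32.2 CPM in 18 GRLKO libraries. Fkbp5, a well known GR target, checks the pathway. At ZT12 on caloric restriction Fkbp5 was 333, 321 and 392 CPM in WT and 57.4, 49.2 and 40.7 CPM in GRLKO mice, without overlap. On the control diet at ZT12 it was 63.3, 64.8, 51.2 and 111 CPM in WT and 16.9, 16.8, 15.3 and 10.6 CPM in GRLKO mice, again without overlap.

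Most members had a daily rhythm in every group. JTK_CYCLE, a rank test for a 24 h cycle, called 5 of 7 members rhythmic in WT and 7 of 7 in GRLKO mice on caloric restriction, where 27.8% and 25.5% of all genes were called. On the control diet it called 6 of 7 in WT and 7 of 7 in GRLKO mice, against 32.3% and 28.3% of all genes. The members' share lay above these backgrounds, as a description of genes chosen for being clock outputs. The test did not call Nfil3 in WT mice on caloric restriction (adjusted p = 0.237), Bhlhe41 in the same mice (adjusted p = 0.118) or Bhlhe40 in WT mice on the control diet (adjusted p = 0.0654). A cosine fit with limma called all 3, and Bhlhe40 was also called by JTK_CYCLE without control ZT12 WT replicate 2 (adjusted p = 0.0228) or replicate 3 (adjusted p = 0.0275). In GRLKO mice on caloric restriction, the call for Hlf (adjusted p = 0.0237) was lost without 6 libraries in turn, namely ZT0 replicates 1, 2 and 3 (adjusted p = 0.0683, 0.0696 and 0.0681), ZT4 replicate 2 (adjusted p = 0.0521) and ZT20 replicates 1 and 3 (adjusted p = 0.0515 and 0.0537).

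**Figure D1:**
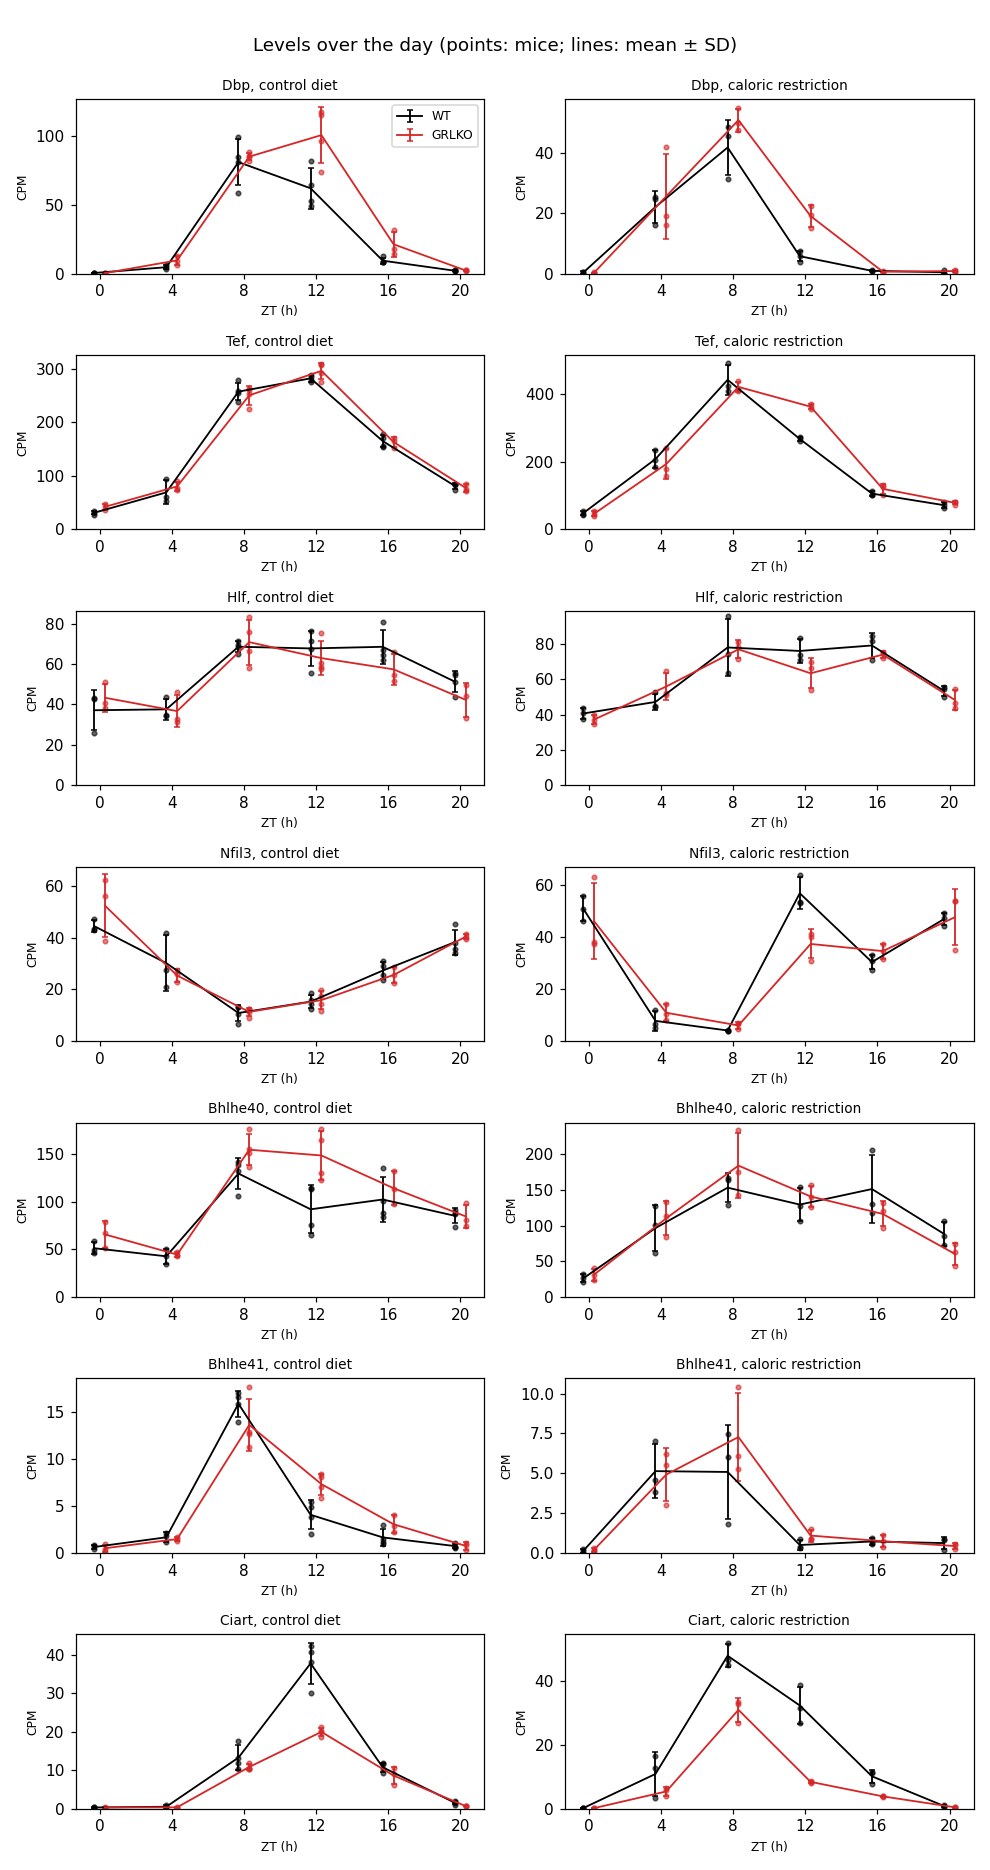
Level of each gene (CPM, y axis from 0) against ZT (h, x axis) on the control diet (left) and on caloric restriction (right); points are mice and lines with bars are mean ± SD for WT (black) and GRLKO (red). Ciart at ZT12 on caloric restriction lies at 26.9, 31.4 and 38.6 CPM in WT and at 8.37, 8.02 and 8.80 CPM in GRLKO mice, and the y scales differ between panels.

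The question of the GRLKO comparison is which genes need the hepatocyte receptor, and when. On caloric restriction, loss of GR raised Dbp and Tef and lowered Nfil3 and Ciart at ZT12, and it lowered Ciart at ZT8 and ZT16. These were 6 calls of edgeR's quasi-likelihood test at an adjusted p of 0.05 over all genes, among 38 member tests with enough counts of 42. By time, 0 of 4 tested members were called at ZT0, 0 of 7 at ZT4, 1 of 7 at ZT8, 4 of 7 at ZT12, 1 of 7 at ZT16 and 0 of 6 at ZT20. Of all genes tested, 0.502% were called at ZT0, 0.69% at ZT4, 2.55% at ZT8, 15.3% at ZT12, 4.54% at ZT16 and 1.47% at ZT20. The members' share was above the background at ZT8, ZT12 and ZT16, where 1 gene is 1 of 7. This is a description only, since the members were chosen with earlier results of these data known. At ZT0, ZT4 and ZT20 edgeR gave 0 members at an unadjusted p under 0.05, and DESeq2 called 0 members. At ZT12 the members' median log2 fold change was 0.11 beside -0.0041 over all genes.

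On the control diet, loss of GR lowered Ciart at ZT12, the only call when edgeR was fitted to the groups of 1 time point. That was 1 of 7 members at ZT12, against 2.08% of all genes tested. The test called 0 of 4 members at ZT0, 0 of 6 at ZT4, and 0 of 7 at each of ZT8, ZT16 and ZT20. Of all genes, 0.536% were called at ZT0, 0.195% at ZT4, 1.43% at ZT8, 1.98% at ZT16 and 0.42% at ZT20. At an unadjusted p under 0.05, edgeR gave 1 member at each of ZT0 (Tef), ZT4 (Dbp), ZT8 (Bhlhe40), ZT16 (Dbp) and ZT20 (Ciart). DESeq2 called 0 members at ZT0, ZT4, ZT8 and ZT20, 1 at ZT16 (Dbp) and 3 at ZT12 (Ciart, Dbp and Bhlhe40). Over all times the edgeR count was 1, the DESeq2 count 4, and edgeR in 1 fit of all libraries of the diet gave 6 calls, adding Tef at ZT0, Dbp and Bhlhe40 at ZT12, Dbp at ZT16 and Ciart at ZT20.

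Whether the effect of GR loss differed between the diets was tested as an interaction, in which a constant shift between the tables drops out. It was called for Tef and Ciart at ZT12, 2 of 7 members, where 1.01% of all genes were called. It was called for 0 of 5 tested members at ZT0 and 0 of 7 at ZT4, ZT8, ZT16 and ZT20, where 0%, 0%, 0.081%, 0.234% and 0% of all genes were called. At an unadjusted p under 0.05, edgeR gave 1 member at ZT0 (Tef), 0 at ZT4, ZT8 and ZT20, and 2 at ZT16 (Dbp and Ciart). DESeq2 called Ciart at ZT16 and no member at ZT0, ZT4, ZT8 or ZT20. Among cell markers this interaction was called for Car3 at ZT12 and ZT16, of 4 tested adipocyte markers, and for Alas2 at ZT8, of 5 tested erythrocyte markers. These differences were positive, whereas the list medians were -0.90 at ZT12 for adipocytes and -0.96 at ZT8 for erythrocytes. At ZT16 the adipocyte median was 0.89. The part of these markers in the members' results was not tested.

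Marker genes of liver cell types moved in the same comparison as the ZT12 calls on caloric restriction. Of 7 hepatocyte markers, 5 were lower in GRLKO mice (Alb, Apoa1, Cps1, Hnf4a and Tat), and their summed level, led by Alb, was 165755, 170845 and 173032 CPM in WT and 123049, 132118 and 114266 CPM in GRLKO mice. Of 8 Kupffer and myeloid markers, 4 were higher (C1qa, Clec4f, Csf1r and Vsig4), with sums, led by Clec4f, of 47.6, 78.6 and 57.9 CPM and 129, 104 and 168 CPM. No marker of either list was at 0, and neither pair of sums overlapped. Of 3 tested adipocyte markers of 8, Car3, which liver also expresses, was higher. The adipocyte sum, led by Car3, was 277, 426 and 272 CPM in WT, with Cfd, Lep, Plin1 and Retn at 0, and 1497, 1838 and 1843 CPM in GRLKO mice, with Lep and Plin1 at 0. In bulk RNA fewer cells of a type and less RNA per cell cannot be told apart, and the part of these shifts in the members' results was not tested.

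WT replicate 3 at ZT12 on caloric restriction also held pancreas RNA. The sum of 6 exocrine pancreas markers, led by Ctrb1, was 0.14, 0.558 and 563 CPM in WT and 0, 0.0565 and 0 CPM in GRLKO mice, where Amy2b, Cpa1, Ctrb1, Pnlip and Prss2 were at 0. Without that library Dbp, Tef and Ciart were still called at ZT12, and the call for Nfil3 was lost (log2 fold change -0.66, edgeR adjusted p = 0.0532). WT replicate 2 at ZT16 on the control diet held pancreas RNA as well, with sums, led by Ctrb1, of 0.305, 266, 0.974 and 0.143 CPM in WT and 0.34, 0.318 and 0.313 CPM in GRLKO mice, where Cpa1, Ctrb1 and Prss2 were at 0. Its erythrocyte sum, led by Hbb-bs, was also the highest of its group (724, 1534, 676 and 425 CPM). Leaving it out changed no call of a member.

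At ZT12 on the control diet, 4 of 7 hepatocyte markers were lower (Apoa1, Cps1, Hnf4a and Tat), with sums of 88869, 102046, 84812 and 96133 CPM in WT and 73941, 68239, 77983 and 89440.0 CPM in GRLKO mice. Their sums overlapped, Alb was the most abundant, no marker was at 0, and their part in the fall of Ciart was not tested. Of 4 tested adipocyte markers Cfd was higher, and the adipocyte sums, led by Car3 and with Lep, Plin1 and Retn at 0, were 3657, 2507, 2946 and 2221 CPM in WT and 3981, 3893, 6221 and 4689 CPM in GRLKO mice, without overlap.

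Dbp, a PAR bZIP activator, was highest at ZT8 and ZT12 on the control diet and at ZT8 and ZT4 on caloric restriction. Means of WT mice on the control diet fell from ZT8 (81.0 ± 16.9 CPM, n = 4) through ZT12 (62.0 ± 15.0, n = 4), ZT16 (9.39 ± 2.11, n = 4), ZT4 (4.65 ± 1.52, n = 3) and ZT20 (2.07 ± 0.43, n = 4) to ZT0 (0.436 ± 0.0906, n = 3). Only the neighbours ZT8 and ZT12 overlapped. In restricted WT mice the order was ZT8 (41.8 ± 9.27 CPM), ZT4 (22.1 ± 5.27), ZT12 (5.77 ± 1.74), ZT16 (0.915 ± 0.148), ZT20 (0.447 ± 0.575) and ZT0 (0.358 ± 0.346), with n = 3 each. The last 3 overlapped as neighbours, at 0 to 20 counts per library. In GRLKO mice the order on the control diet began with ZT12 (101 ± 20.1 CPM, n = 4) and ZT8 (85.0 ± 2.63 CPM, n = 4), which overlapped. On caloric restriction it began with ZT8 (50.9 ± 3.81 CPM) and ZT4 (25.7 ± 14.1 CPM), without overlap.

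Loss of GR raised Dbp at ZT12 on caloric restriction. Its level was 3.93, 7.39 and 5.99 CPM in WT and 19.5, 22.5 and 15.3 CPM in GRLKO mice. The lowest GRLKO mouse lay above the highest WT mouse. The log2 fold change was 1.71 (SE 0.24, edgeR adjusted p = 0.00472). Dbp at ZT12 on the control diet was 52.5, 48.8, 82.1 and 64.5 CPM in WT and 117, 115, 96.6 and 73.9 CPM in GRLKO mice, and at ZT16 it was 8.37, 12.6, 8.25 and 8.38 CPM and 17.7, 31.8 and 14.5 CPM. The groups overlapped at ZT12 and did not at ZT16, where every GRLKO mouse was higher. The log2 fold changes were 0.69 (SE 0.19, edgeR adjusted p = 0.121) and 1.177 (SE 0.28, edgeR adjusted p = 0.0813), neither called by edgeR at 1 time point. DESeq2 called both (adjusted p = 0.0155 and 0.00318), and so did edgeR in 1 fit of all libraries of the diet (adjusted p = 0.0391 and 0.00251). At ZT16 Car3 of 4 tested adipocyte markers and Alas2 of 5 tested erythrocyte markers were higher too. The median log2 fold change of the tested erythrocyte markers was -0.80 there, and their sums overlapped. Sums did not overlap for hepatocytes, led by Alb (96727, 101459, 95528 and 89925 CPM in WT and 87403, 76675 and 86026 CPM in GRLKO mice), for endothelial cells, led by Clec4g (105, 109, 105 and 105 CPM and 103, 79.6 and 98.0 CPM), or for adipocytes, led by Car3 (3169, 2870.1, 1998 and 2096 CPM and 5724, 5552 and 5204 CPM). Their part in the difference of Dbp was not tested. The ZT16 group holds WT replicate 2, the library with pancreas RNA, which had the highest Dbp of the WT mice. With any 1 library left out, the ZT16 log2 fold change ran from 0.77 to 1.39 and was not called by edgeR at 1 time point (adjusted p from 0.0842 to 0.180). The difference between the diets was not called at ZT12 (1.04 (SE 0.33, edgeR adjusted p = 0.168)) or at ZT16 (-1.70 (SE 0.48, edgeR adjusted p = 0.226)). The 3' part of Dbp overlaps Sphk2 on the opposite strand, and the strand setting of the quantification is not settled by the sources used here. Sphk2 was 19.6, 25.5 and 29.3 CPM in WT and 29.3, 33.0 and 28.1 CPM in GRLKO mice at ZT12 on caloric restriction, groups that overlapped.

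Tef, another PAR bZIP activator, also had its highest levels at ZT8 and ZT12. In WT mice on the control diet the order was ZT12 (282 ± 6.06 CPM), ZT8 (258 ± 16.2), ZT16 (165 ± 12.0), ZT20 (81.3 ± 5.56), ZT4 (69.3 ± 22.6) and ZT0 (31.2 ± 3.17). The neighbours ZT12 and ZT8, and ZT20 and ZT4, overlapped. In restricted WT mice the order was ZT8 (440.4 ± 44.3 CPM), ZT12 (266 ± 5.59), ZT4 (207 ± 25.0), ZT16 (106 ± 6.88), ZT20 (71.4 ± 8.59) and ZT0 (48.1 ± 6.09), and no neighbours overlapped. At ZT12 on caloric restriction Tef was 268, 260.1 and 271 CPM in WT and 368, 361 and 354 CPM in GRLKO mice. All 3 GRLKO mice were higher, by a log2 fold change of 0.43 (SE 0.073, edgeR adjusted p = 0.0097). At ZT12 on the control diet it was 276, 279, 285 and 289 CPM in WT and 307, 309, 276 and 293 CPM in GRLKO mice, and the groups overlapped (0.062 (SE 0.061, edgeR adjusted p = 0.778)).

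The effect of GR loss on Tef at ZT12 was larger on caloric restriction by 0.38 (SE 0.083, edgeR adjusted p = 0.0484) on the log2 scale. This call rested on every library, since leaving out any 1 of the 14 ended it, with differences from 0.35 to 0.40 and edgeR adjusted p from 0.0591 to 0.111. It also ended with other size factors (0.38, edgeR adjusted p = 0.0535) and without the filter on low counts (0.37, edgeR adjusted p = 0.120). At ZT0 on the control diet Tef was 34.2, 31.4 and 27.9 CPM in WT and 42.4, 48.3 and 36.1 CPM in GRLKO mice. The GRLKO mice were all higher, and edgeR did not call the log2 fold change of 0.44 (SE 0.13, edgeR adjusted p = 0.199), but did in 1 fit of all libraries of the diet (adjusted p = 0.0434). Beside it, Cfd of 4 tested adipocyte markers and Alas2 of 5 tested erythrocyte markers were higher, and the adipocyte sums, led by Car3, were 4469, 4295 and 2173 CPM in WT and 9416, 7383 and 7125 CPM in GRLKO mice, without overlap, and their part was not tested.

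Hlf, the remaining PAR bZIP activator, had no GRLKO call. In control WT mice the means at ZT8 (68.6 ± 2.75 CPM), ZT16 (68.5 ± 8.42), ZT12 (67.7 ± 8.83) and ZT20 (51.3 ± 5.34) overlapped as neighbours. ZT4 (37.6 ± 5.27) and ZT0 (37.1 ± 9.87) lay below them without overlap with ZT20. In restricted WT mice the order was ZT16 (79.0 ± 7.07 CPM), ZT8 (77.9 ± 16.2), ZT12 (75.9 ± 6.53), ZT20 (53.3 ± 3.08), ZT4 (47.1 ± 4.65) and ZT0 (40.6 ± 3.23). The first 3 overlapped as neighbours, as did ZT20 and ZT4. The nearest to a GRLKO call was ZT12 on caloric restriction, at 70.9, 73.6 and 83.3 CPM in WT and 70.0, 66.1 and 53.8 CPM in GRLKO mice. The GRLKO mice were all lower, and the log2 fold change was -0.27 (SE 0.12, edgeR adjusted p = 0.17), with a 95% interval from -0.55 to 0.0062.

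Nfil3, the repressor of D-boxes, was lowest at ZT8, when Dbp and Tef were high. In WT mice on the control diet the order was ZT0 (44.5 ± 2.28 CPM), ZT20 (38.3 ± 4.89), ZT4 (30.2 ± 10.7), ZT16 (27.3 ± 3.24), ZT12 (15.3 ± 2.56) and ZT8 (10.9 ± 3.01). Every pair of neighbours overlapped except ZT16 and ZT12. The order in restricted WT mice was ZT12 (56.7 ± 6.20 CPM), ZT0 (50.7 ± 4.80), ZT20 (46.8 ± 2.44), ZT16 (30.3 ± 2.83), ZT4 (7.76 ± 3.73) and ZT8 (4.08 ± 0.322). The first 3 overlapped as neighbours and the others did not, so this course had high levels at ZT12 and at ZT20 to ZT0 with a lower ZT16 between them.

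Loss of GR lowered Nfil3 at ZT12 on caloric restriction. The values were 63.8, 52.8 and 53.4 CPM in WT and 30.8, 40.9 and 40.0 CPM in GRLKO mice. All 3 GRLKO mice were lower, by a log2 fold change of -0.62 (SE 0.14, edgeR adjusted p = 0.0244). The call was lost without WT replicate 1 (-0.52, edgeR adjusted p = 0.0620), WT replicate 3 (-0.66, edgeR adjusted p = 0.0532) or GRLKO replicate 3 (-0.67, edgeR adjusted p = 0.0564), and in 1 fit of all libraries of the diet (-0.61, edgeR adjusted p = 0.0515). Nfil3 at ZT12 on the control diet was 18.5, 14.5, 12.4 and 15.8 CPM in WT and 19.9, 17.6, 11.7 and 14.4 CPM in GRLKO mice, which overlapped (0.051 (SE 0.18, edgeR adjusted p = 0.955)). The difference between the diets was not called (-0.65 (SE 0.24, edgeR adjusted p = 0.24)). At ZT8 on caloric restriction Nfil3 was 3.86, 4.45 and 3.93 CPM in WT and 6.80, 6.59 and 4.64 CPM in GRLKO mice. There every GRLKO mouse was higher, and the log2 fold change of 0.56 (SE 0.19, edgeR adjusted p = 0.189) was not called.

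Bhlhe40, a repressor at E-boxes, had no GRLKO call when edgeR was fitted to 1 time point. For WT mice of the control diet the order was ZT8 (129.6 ± 16.5 CPM), ZT16 (102 ± 23.4), ZT12 (92.0 ± 25.4), ZT20 (85.2 ± 7.74), ZT0 (51.2 ± 6.48) and ZT4 (42.7 ± 7.69). The only neighbours without overlap were ZT20 and ZT0. The order in restricted WT mice was ZT8 (153 ± 20.5 CPM), ZT16 (151 ± 47.7), ZT12 (129.5 ± 23.6), ZT4 (96.7 ± 32.6), ZT20 (88.4 ± 16.9) and ZT0 (26.2 ± 5.68), and only ZT20 and ZT0 were apart. At ZT12 on the control diet Bhlhe40 was 113, 65.5, 75.1 and 114 CPM in WT and 176, 123, 130.2 and 165 CPM in GRLKO mice. All 4 GRLKO mice were higher, and edgeR did not call the log2 fold change of 0.68 (SE 0.20, edgeR adjusted p = 0.152), whereas DESeq2 did (adjusted p = 0.0214), as did edgeR in 1 fit of all libraries of the diet (adjusted p = 0.0111). On caloric restriction at ZT12 the values were 154, 107 and 128 CPM in WT and 140.0, 126 and 157 CPM in GRLKO mice, with overlap (0.11 (SE 0.15, edgeR adjusted p = 0.651)). The difference between the diets was -0.56 (SE 0.29, edgeR adjusted p = 0.404) and was not called.

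Bhlhe41, its paralog and also a repressor, had low counts and a narrow peak. For WT mice of the control diet the order was ZT8 (15.8 ± 1.36 CPM), ZT12 (4.04 ± 1.54), ZT4 (1.65 ± 0.514), ZT16 (1.64 ± 0.94), ZT20 (0.719 ± 0.236) and ZT0 (0.618 ± 0.233), and only ZT8 stood apart from its neighbour. The order in restricted WT mice was ZT4 (5.13 ± 1.68 CPM), ZT8 (5.08 ± 2.94), ZT16 (0.714 ± 0.198), ZT20 (0.613 ± 0.378), ZT12 (0.492 ± 0.31) and ZT0 (0.125 ± 0.116). There ZT4 overlapped ZT8, ZT16 to ZT12 overlapped as neighbours, and libraries at ZT0 held 0 to 4 counts. At ZT12 Bhlhe41 was 3.85, 1.95, 4.91 and 5.44 CPM in WT and 7.03, 8.32, 5.82 and 8.01 CPM in GRLKO mice on the control diet, and 0.351, 0.279 and 0.847 CPM and 0.866, 1.52 and 0.862 CPM on caloric restriction. GRLKO mice were all higher on both diets. Neither the log2 fold change of 0.85 (SE 0.28, edgeR adjusted p = 0.223) nor that of 1.09 (SE 0.50, edgeR adjusted p = 0.186) was called.

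Ciart, the repressor of CLOCK-BMAL1, was the member with the most GRLKO calls, and it was lower in each. The order in control WT mice was ZT12 (37.7 ± 5.40 CPM), ZT8 (13.3 ± 3.15), ZT16 (10.7 ± 1.2003), ZT20 (1.53 ± 0.418), ZT4 (0.51 ± 0.359) and ZT0 (0.313 ± 0.157). The overlapping neighbours were ZT8 and ZT16, and ZT4 and ZT0. The order in restricted WT mice was ZT8 (47.9 ± 3.66 CPM), ZT12 (32.3 ± 5.88), ZT4 (10.9 ± 6.79), ZT16 (10.1 ± 2.08), ZT20 (0.832 ± 0.366) and ZT0 (0.199 ± 0.128), and only ZT4 and ZT16 overlapped. The order in GRLKO mice was the same as in WT mice on each diet, with the same neighbours overlapping.

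At ZT12 on caloric restriction Ciart was 26.9, 31.4 and 38.6 CPM in WT and 8.37, 8.02 and 8.80 CPM in GRLKO mice. The GRLKO mice lay close together and far below the WT mice, by a log2 fold change of -1.95 (SE 0.14, edgeR adjusted p = 0.000428). At ZT16 it was 11.4, 7.73 and 11.2 CPM in WT and 3.87, 3.63 and 4.07 CPM in GRLKO mice, without overlap and with a log2 fold change of -1.39 (SE 0.19, edgeR adjusted p = 0.0077). At ZT8 it was 52.0, 46.7 and 44.9 CPM in WT and 32.7, 26.7 and 33.4 CPM in GRLKO mice. Every GRLKO mouse was lower, by -0.63 (SE 0.11, edgeR adjusted p = 0.0334), a call that ended when any 1 of the 6 mice was left out (log2 fold change from -0.69 to -0.53, edgeR adjusted p from 0.0616 to 0.0955) and in 1 fit of all libraries of the diet (-0.63, edgeR adjusted p = 0.269). Markers moved beside Ciart at these times too, and at both Apoa1 of 7 hepatocyte markers was lower and Car3 and Cidec of 3 tested adipocyte markers and Alas2 of 5 tested erythrocyte markers were higher. Hepatocyte sums, led by Alb, were 137432, 117658 and 112649 CPM in WT and 108611, 103738 and 105020.0 CPM in GRLKO mice at ZT8, and 136351, 141391 and 136234 CPM and 123400.0, 100159 and 126643 CPM at ZT16. Adipocyte sums, led by Car3 and with Lep and Plin1 at 0, were 782, 215 and 693 CPM and 2669.5, 3126 and 3006 CPM at ZT8, and 499, 721 and 575 CPM and 3670.0, 3745 and 4065 CPM at ZT16. None of these 4 pairs of sums overlapped. The erythrocyte sums overlapped at both times, and the median log2 fold change of the tested erythrocyte markers was -0.32 at ZT8 and -0.21 at ZT16. The part of the markers in the fall of Ciart was not tested. Endothelial sums at ZT8, led by Clec4g in WT and by Kdr in GRLKO mice, were also apart, at 154, 165 and 158 CPM and 191, 196 and 206 CPM. At ZT16 the sums of neutrophil markers (2.86, 2.91 and 2.99 CPM and 4.45, 3.51 and 4.13 CPM) and of lymphocyte markers (0.371, 0.568 and 0.411 CPM and 2.08, 1.25 and 0.94 CPM) were higher in every GRLKO mouse.

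Ciart at ZT12 on the control diet was 40.7, 30.1, 38.0 and 42.1 CPM in WT and 21.1, 20.2, 18.6 and 19.9 CPM in GRLKO mice. The groups did not overlap, and the log2 fold change was -0.93 (SE 0.11, edgeR adjusted p = 0.00294).

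The fall of Ciart at ZT12 was larger on caloric restriction than on the control diet, by -1.01 (SE 0.18, edgeR adjusted p = 0.0234) on the log2 scale. That call was lost without any of the GRLKO mice on caloric restriction, replicate 1 (-1.01, edgeR adjusted p = 0.0553), replicate 2 (-0.98, edgeR adjusted p = 0.0555) or replicate 3 (-1.05, edgeR adjusted p = 0.0517). At ZT16 the difference between the diets was -1.07 (SE 0.27, edgeR adjusted p = 0.165), not called by edgeR and called by DESeq2 (adjusted p = 0.0481). At ZT20 on the control diet Ciart was 1.61, 0.972, 1.98 and 1.57 CPM in WT and 0.599, 0.698 and 0.7 CPM in GRLKO mice. There all GRLKO mice were lower, and the log2 fold change of -1.19 (SE 0.37, edgeR adjusted p = 0.277) was not called, but was in 1 fit of all libraries of the diet (edgeR adjusted p = 0.0420). Beside it, Cidec of 4 tested adipocyte markers was higher, the adipocyte sums overlapped, and the part of Cidec was not tested.

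The shape of the daily course differed between the diets in WT mice for Dbp, Tef, Nfil3 and Ciart. The limma test of a difference in sine and cosine terms called these 4 of 7 members, against 26.6% of all genes. A constant shift between the tables of the diets does not enter it, whereas any batch effect that changed with ZT cannot be told apart from diet. The cosine fit placed the peak of Dbp at ZT10.3 ± 0.251 h (SE) on the control diet and at ZT7.51 ± 0.362 h on caloric restriction (limma adjusted p = 4.12e-05). For Tef the peak was at ZT11.7 ± 0.229 h and ZT9.11 ± 0.273 h (limma adjusted p = 2.57e-05), and for Ciart at ZT12.1 ± 0.204 h and ZT10.0 ± 0.234 h (limma adjusted p = 2.84e-05). These 3 peaks were all earlier on caloric restriction, and the order of the raw means moved the same way. The amplitude of Ciart, on the variance-stabilised log2-like scale, was 1.65 ± 0.091 (SE) on the control diet and 2.35 ± 0.14 on caloric restriction. The fitted peak of Nfil3 was at ZT21.9 ± 0.385 h and ZT18.4 ± 0.789 h (limma adjusted p = 0.0179), although its course on caloric restriction was not that of a single cosine.

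The rhythm shape of Hlf, Bhlhe40 and Bhlhe41 was not called between the diets (limma adjusted p = 0.813, 0.217 and 0.125). Their fitted peaks were at ZT12.9 ± 0.49 h and ZT12.4 ± 0.444 h for Hlf, at ZT13.1 ± 0.845 h and ZT11.8 ± 0.725 h for Bhlhe40, and at ZT8.92 ± 0.558 h and ZT6.73 ± 0.92 h for Bhlhe41. Without WT replicate 2 at ZT0 on caloric restriction Bhlhe41 was called (limma adjusted p = 0.0485). Loss of GR changed the rhythm shape of 0 of 7 members on caloric restriction, where 0.652% of all genes were called, and of 0 of 7 on the control diet, where 0.366% were called. The limma test gave 1 member (Ciart) and 0 members at an unadjusted p under 0.05 in these comparisons, and the same test on log2 CPM called 0 in both. The amplitude of Ciart on caloric restriction was 2.35 ± 0.14 in WT and 1.74 ± 0.15 in GRLKO mice (limma adjusted p = 0.276).

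The diet experiment compared the whole regimen of caloric restriction with its control, with both diets in 1 table. Restricted mice received their food at ZT12 throughout, and controls were night-restricted only in their last week. The amount of food and its timing therefore cannot be told apart. Caloric restriction at ZT12 lowered Dbp, Tef, Bhlhe41 and Ciart and raised Nfil3 and Bhlhe40, and it did not change Hlf by the test. These were 6 of 7 members, where 47.1% of all genes tested were called. Dbp was 42.8, 32.3 and 33.4 CPM in control and 3.93, 4.34 and 3.38 CPM in restricted mice. All restricted mice were far lower, by a log2 fold change of -3.22 (SE 0.15, edgeR adjusted p = 5.05e-05). Bhlhe41 was 6.99, 4.83 and 4.44 CPM in control and 0.313, 0.208 and 0.437 CPM in restricted mice. Its restricted libraries held 8 to 16 counts, and the log2 fold change was -4.08 (SE 0.31, edgeR adjusted p = 0.00021). Ciart was 29.7, 20.7 and 32.6 CPM in control and 14.3, 17.4 and 14.1 CPM in restricted mice, without overlap (-0.86 (SE 0.18, edgeR adjusted p = 0.0066)). When the diets were compared at ZT12 in WT mice of the time series, where diet and table coincide, edgeR did not call Ciart (-0.24, adjusted p = 0.235), Bhlhe40 (0.47, adjusted p = 0.119) or Tef (-0.11, adjusted p = 0.210).

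The repressor Nfil3 moved the other way from Dbp, at 11.6, 13.8 and 15.7 CPM in control and 49.0, 55.6 and 73.8 CPM in restricted mice. Every restricted mouse was higher, by a log2 fold change of 2.12 (SE 0.18, edgeR adjusted p = 0.000263). Bhlhe40 was 81.9, 74.2 and 102 CPM in control and 134, 131 and 178 CPM in restricted mice, and the groups were apart (0.78 (SE 0.16, edgeR adjusted p = 0.0065)). Hlf was 82.9, 82.6 and 78.9 CPM in control and 95.6, 77.9 and 59.7 CPM in restricted mice. The restricted mice spread around the controls, with a log2 fold change of -0.072 (SE 0.16, edgeR adjusted p = 0.73) and a 95% interval from -0.44 to 0.29.

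Tef was 290.3, 257 and 272 CPM in control and 209, 249.5 and 227 CPM in restricted mice of the diet experiment. All restricted mice were lower, by a log2 fold change of -0.26 (SE 0.091, edgeR adjusted p = 0.0493), close to the threshold. The call was lost without control replicate 1 (-0.21, edgeR adjusted p = 0.154), control replicate 2 (-0.30, edgeR adjusted p = 0.0712), control replicate 3 (-0.27, edgeR adjusted p = 0.1004), restricted replicate 1 (-0.19, edgeR adjusted p = 0.103) or restricted replicate 3 (-0.25, edgeR adjusted p = 0.114). It was also lost with another scaling of libraries (edgeR adjusted p = 0.0527) and without the filter on low counts (edgeR adjusted p = 0.0652).

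Cell markers moved with diet as well as with GR loss. Of 7 hepatocyte markers, 4 were higher on caloric restriction (Alb, Cps1, Hnf4a and Tat) and 1 lower (Serpina1c), with sums, led by Alb, of 88752, 88245 and 94852 CPM in control and 159599, 160612 and 166660.0 CPM in restricted mice. Of 6 endothelial markers, 4 were higher (Clec4g, Lyve1, Pecam1 and Stab2). Their sums were 116, 149 and 153 CPM, led by Kdr, and 194, 194 and 222 CPM, led by Clec4g. No marker of these lists was at 0 and neither pair of sums overlapped. Of 3 tested adipocyte markers of 8, 1 was higher (Fabp4) and 2 lower (Car3 and Cidec). The adipocyte sums, led by Car3, were 1175, 1159 and 1149.8 CPM with Lep, Plin1 and Retn at 0, and 273, 104 and 77.0 CPM with Cfd also at 0. Their part in the members' diet results was not tested.

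In the corticosterone experiment, which asked what the hormone does without restriction, Ciart rose. It was 10.4, 5.34 and 1.91 CPM in vehicle and 57.8, 30.3 and 46.7 CPM in treated mice. All treated mice were higher, by a log2 fold change of 2.94 (SE 0.52, edgeR adjusted p = 0.0187). This was 1 of 7 members, against 8.11% of all genes tested. With any 1 library left out, the log2 fold change of Ciart ran from 2.52 to 3.61. The call was lost without vehicle replicate 2 (2.88, edgeR adjusted p = 0.0904), treated replicate 1 (2.72, edgeR adjusted p = 0.0558) or treated replicate 3 (2.91, edgeR adjusted p = 0.0549). The count was then 0, with 3 members at an unadjusted p under 0.05 by edgeR and 2 called by DESeq2 when all libraries were kept. Fkbp5 was 52.9, 41.6 and 19.8 CPM in vehicle and 217, 292 and 199 CPM in treated mice, without overlap (2.63 (SE 0.35, edgeR adjusted p = 0.00797)). Vehicle mice had less Ciart than the other WT controls at ZT12. These ran from 30.1 to 42.1 CPM in the time series and from 20.7 to 32.6 CPM in the diet experiment. Treated mice overlapped both. Dbp of vehicle mice was also below those controls (48.8 to 82.1 CPM and 32.3 to 42.8 CPM). The tables were scaled separately, and the cause was not tested.

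Of the PAR bZIP activators, none was called by edgeR with corticosterone. Dbp was 20.4, 6.65 and 3.49 CPM in vehicle and 55.1, 12.6 and 42.2 CPM in treated mice, groups that overlapped (1.85 (SE 0.71, edgeR adjusted p = 0.157)). Tef was 168, 139.8 and 103 CPM in vehicle and 225, 169.8 and 208 CPM in treated mice. Each treated mouse was above every vehicle mouse, and the log2 fold change of 0.55 (SE 0.19, edgeR adjusted p = 0.117) was called by DESeq2 only (adjusted p = 0.0380). Hlf was 68.2, 57.7 and 37.0 CPM and 79.6, 69.7 and 74.0 CPM, with the treated mice all higher and no call (0.45 (SE 0.20, edgeR adjusted p = 0.215)). Vehicle replicate 3 had the lowest Dbp, Tef, Hlf and Ciart of its group.

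The repressors Nfil3, Bhlhe40 and Bhlhe41 were not called with corticosterone. Nfil3 was 19.6, 24.4 and 44.3 CPM in vehicle and 26.5, 46.7 and 25.8 CPM in treated mice (0.16 (SE 0.35, edgeR adjusted p = 0.819)). Bhlhe40 was 161, 84.6 and 72.6 CPM in vehicle and 74.9, 67.3 and 66.5 CPM in treated mice (-0.61 (SE 0.28, edgeR adjusted p = 0.224)). Vehicle replicate 1 stood apart as the highest Bhlhe40 value, and both genes' groups overlapped. Bhlhe41 was 3.16, 1.99 and 1.98 CPM in vehicle and 2.96, 0.593 and 3.70 CPM in treated mice, also with overlap and with a 95% interval of the log2 fold change from -1.36 to 1.39. Among cell markers, Hnf4a and Tat of 7 hepatocyte markers and Marco of 8 Kupffer and myeloid markers were higher with corticosterone. The hepatocyte sums, led by Alb, were 107029, 99928 and 105303 CPM and 106695, 107600.0 and 98116 CPM and overlapped. The myeloid sums, led by Clec4f, were 77.6, 95.8 and 110.3 CPM and 103, 158 and 131 CPM and overlapped. No marker of these lists was at 0, and their part in the rise of Ciart was not tested.

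Markers of other cells were read in the same way. With GR loss at ZT12 on caloric restriction, 1 of 6 endothelial markers (Lyve1), 1 of 2 tested neutrophil markers (Csf3r) and 1 of 5 tested erythrocyte markers (Alas2) were higher, 1 of 3 tested cholangiocyte markers (Sox9) was lower, and 0 of 5 tested stellate markers were called. Lymphocyte and exocrine pancreas markers did not pass the filter there. Endothelial sums, led by Clec4g, were 163, 149 and 180.0 CPM in WT and 213, 199 and 222 CPM in GRLKO mice, and the sums of cholangiocyte and neutrophil markers were also higher in every GRLKO mouse. In the diet experiment Dcn and Des of 6 stellate markers, Krt19 and Sox9 of 4 tested cholangiocyte markers and Cxcr2 of 2 tested neutrophil markers were higher. Col1a1, Cd79a of 3 tested lymphocyte markers and Alas2 of 5 tested erythrocyte markers were lower. Stellate sums, led by Dcn, were 192, 203 and 162 CPM in control and 275, 241 and 277 CPM in restricted mice, neutrophil sums were also higher in every restricted mouse, and lymphocyte sums were lower. With corticosterone Kdr of 6 endothelial, Lrat of 6 stellate, Sox9 of 4 tested cholangiocyte and Car3 of 3 tested adipocyte markers were lower. The median log2 fold changes of the stellate (0.12) and cholangiocyte (0.34) lists were positive. The adipocyte sums, led by Car3, were 3332, 2769 and 2558 CPM in vehicle mice and 1748, 1679.9 and 1231 CPM in treated mice, with Lep and Plin1 at 0 in both and Adipoq and Cfd at 0 in treated mice. The endothelial sums, led by Clec4g, were 95.2, 102 and 119.8 CPM and 77.1, 85.2 and 92.5 CPM, and the erythrocyte sums, led by Hbb-bs, were 699, 632 and 785 CPM and 327, 558 and 301 CPM. These 3 lists were lower in every treated mouse, as were lymphocyte sums (0.863, 2.30 and 2.67 CPM, led by Cd79a, and 0.455, 0.593 and 0.684 CPM, led by Cd3e, with Ms4a1 at 0). The neutrophil sums were higher in every treated mouse, at 1.65, 2.61 and 3.08 CPM, led by Cxcr2, and 3.79, 5.54 and 4.31 CPM, led by Csf3r, with Ly6g at 0. The part of these shifts in the members' results was not tested.

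**Figure D2:**
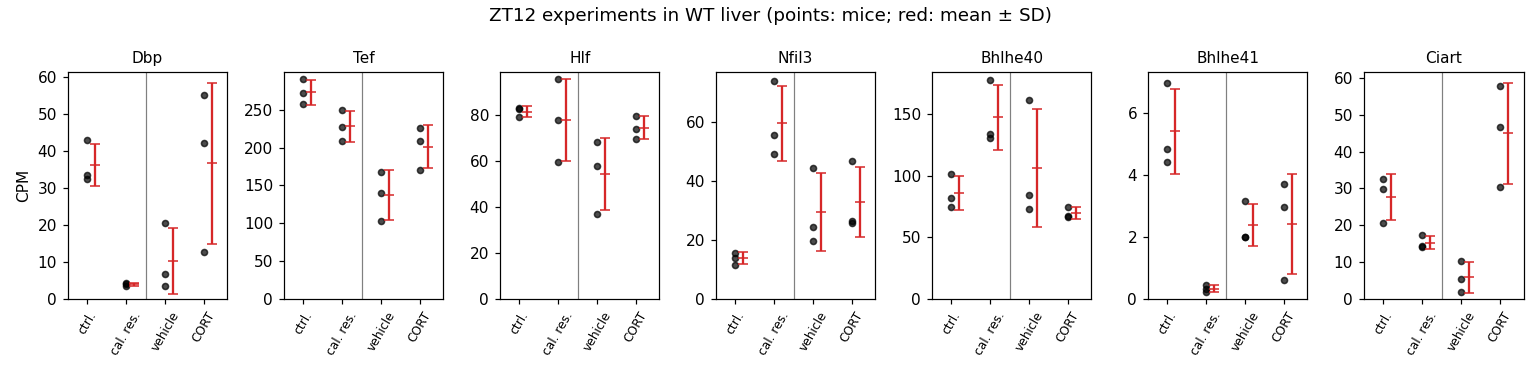
Level of each gene (CPM, y axis from 0) in single WT mice at ZT12, for control and caloric restriction (left of the line) and for vehicle and corticosterone (right of the line); red marks are mean ± SD with n = 3. Ciart lies at 14.3, 17.4 and 14.1 CPM on caloric restriction and at 57.8, 30.3 and 46.7 CPM with corticosterone, and the 2 experiments were scaled separately.

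Other genes of the clock and its outputs were read from lists. Of 11 core clock genes tested at ZT12 on caloric restriction, loss of GR raised 3, among them Nr1d1 and Per3. It lowered 4 (Arntl, Clock, Cry1 and Per1), where 15.3% of all genes were called. Per1, a clock gene that GR is known to induce, had -1.22 (SE 0.11, edgeR adjusted p = 0.000829) and Nr1d1, a clock repressor, 1.29 (SE 0.11, edgeR adjusted p = 0.000749). Of the core clock genes 9 were tested on the control diet at ZT12 and 1 was called (2.08% of all genes), Per1, with -1.04 (SE 0.20, edgeR adjusted p = 0.0332). At ZT16 on that diet Per3 was higher and Cry1 and Per1 lower of 11 tested (1.98% of all genes), and at ZT0 Cry2 was higher of 12 tested (0.536%). On caloric restriction at ZT16, Npas2 and Per1 were lower of 12 tested, where 4.54% of all genes were called. The interaction of GR loss with diet was called for 0 of 11 tested core clock genes at ZT12, beside 1.01% of all genes. It was called for 0 core clock genes at each other ZT as well. In the diet experiment 7 of 11 tested core clock genes were higher, among them Arntl, Clock, Cry1, Cry2 and Per1. The 2 lower were Nr1d1 and Per3, and 47.1% of all genes were called. With corticosterone 2 of 11 were higher (8.11% of all genes were called), Cry2 and Per1, the latter by 2.04 (SE 0.19, edgeR adjusted p = 0.00247).

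Of 9 genes known as targets of PAR bZIP factors in liver, loss of GR at ZT12 on caloric restriction raised Cyp2a4 and Cyp2c37 and lowered Cyp2c50 and Por, with a median log2 fold change of 0.40 beside -0.0041 over all genes, of which 15.3% were called. It raised Cyp2a4 and Cyp2b10 at ZT12 on the control diet, where 2.08% of all genes were called. Por, the electron donor of cytochromes P450, had -0.97 (SE 0.11, edgeR adjusted p = 0.00182) at ZT12 on caloric restriction. On the control diet at ZT12 Por had -0.48 (SE 0.14, edgeR adjusted p = 0.148) and was not called. The interaction of GR loss with diet was called for 0 of the 9 genes at each ZT, beside 0% to 1.01% of all genes. In the diet experiment, where 47.1% of all genes were called, 5 were higher (Cyp2a4, Cyp2a5, Cyp2b10, Cyp2c37 and Por) and 2 lower, Alas1 and Cyp7a1, the latter the rate-limiting enzyme of bile acid synthesis, with -1.23 (SE 0.26, edgeR adjusted p = 0.00717). With corticosterone 3 of 8 tested were higher, Alas1, Cyp2b10 and Por, beside 8.11% of all genes. At other times on caloric restriction, Cyp2a4 and Cyp2b10 were higher at ZT8 (2.55% of all genes) and ZT20 (1.47%). At ZT16 Cyp2b10 was higher and Cyp7a1 lower (4.54%). On the control diet Cyp2b10 was higher and Cyp2c50 lower at ZT8 (1.43%). There Cyp2a4 and Cyp2b10 were higher and Por lower at ZT16 (1.98%), and Cyp2a4 was higher at ZT20 (0.42%). At ZT0 and ZT4, 0 of the 9 were called on either diet, beside 0.195% to 0.69% of all genes. Cyp2a4 and Cyp2a5 are near-identical copies, so their reads may be split between them and their values are uncertain. Of 5 other clock-controlled genes, Wee1 was higher and Usp2 lower at ZT12 on caloric restriction in GRLKO mice (15.3% of all genes). Usp2, a ubiquitin protease, had -0.77 (SE 0.087, edgeR adjusted p = 0.00199) there, -0.66 (SE 0.092, edgeR adjusted p = 0.00758) on the control diet and 1.501 (SE 0.34, edgeR adjusted p = 0.0423) with corticosterone. Usp2 was also lower in GRLKO mice at ZT20 on caloric restriction (1.47% of all genes) and at ZT16 on the control diet (1.98%). Gys2 was higher at ZT16 on caloric restriction (4.54%). For these 5 genes the interaction with diet also gave 0 calls at each ZT. In the diet experiment (47.1%) Nampt was higher and Gys2 lower.

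Genes with courses most like each member's were found by Pearson's r over the 24 group means of the time series, centred within each diet, as a description. For Dbp they were Tef (r = 0.945), Narf (r = 0.935) and Rdh9 (r = 0.924), and for Tef they were Per3 (r = 0.963), Cyp2a5 (r = 0.955) and Dbp. For Hlf they were Usp2 (r = 0.935), Sbk1 (r = 0.917) and Azin1 (r = 0.912). For Nfil3 they were Desi2 (r = 0.916), Pxmp4 (r = 0.899) and Mrtfb (r = 0.897). Each comparison was over 8872 genes (8873 for Bhlhe41) with a mean of at least 5 CPM, and the points share libraries and diets. For Bhlhe40 the nearest were Usp2 (r = 0.913), Per3 (r = 0.907) and Hlf (r = 0.885), and for Bhlhe41 Dbp (r = 0.913), Epha1 (r = 0.899) and Stbd1 (r = 0.881). For Ciart they were Cyp2a5 (r = 0.951), Mtss1 (r = 0.951) and Coq10b (r = 0.943).

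The genes lie at chr7:45705088-45710203 (Dbp, plus strand), chr15:81802421-81826863 (Tef, plus strand), chr11:90336536-90390895 (Hlf, minus strand), chr13:52967209-52981073 (Nfil3, minus strand), chr6:108660629-108666925 (Bhlhe40, plus strand), chr6:145858243-145865558 (Bhlhe41, minus strand) and chr3:95878503-95882251 (Ciart, minus strand) of mouse GRCm38. Tef, Bhlhe40, Bhlhe41 and Ciart each overlap an antisense gene that is absent from the tables used here, so reads of that gene cannot be told apart from theirs without strand.

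Because Ciart, Tef and Dbp moved with GR loss or diet, the 250 bases before the annotated starts were searched for short motifs on both strands. RefSeq promoters (GRCm38.p6) matched 6 of 7 members in 7 windows, and Bhlhe40 is named only. The motifs reported here were the E-box CACGTG, the D-box TTATGTAA and its palindrome TTACGTAA, and a longer motif given by name, the GRE, which 6.02%, 0.819%, 0.113% and 0.387% of 32851 promoters hold. The E-box was found in Ciart, Bhlhe41 and Tef. The others were not found in these windows, which says only that these letters are not there. A match is a description and not a binding site. The sequences below, with the E-box in capitals, read 5' to 3' on the gene's strand, and show the 3 E-boxes of Ciart at -116, -58 and -44 bases from the start (all outside the gene of the GENCODE annotation), the 1 of Bhlhe41 at -153 (also outside the gene) and the 2 of Tef at -127 from one start (exon) and -138 from another (intron).
Ciart -116, chr3:95882327-95882356, minus: tgcatctagagtCACGTGttgccggtaagc
Ciart -58, chr3:95882269-95882298, minus: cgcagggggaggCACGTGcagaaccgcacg
Ciart -44, chr3:95882255-95882284, minus: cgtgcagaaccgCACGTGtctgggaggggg
Bhlhe41 -153, chr6:145865556-145865585, minus: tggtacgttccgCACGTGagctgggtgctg
Tef -127, chr15:81802534-81802563, plus: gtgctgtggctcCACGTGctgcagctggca
Tef -138, chr15:81811264-81811293, plus: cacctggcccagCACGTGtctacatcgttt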

How the data were processed

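RNA of 90 mouse liver libraries was analysed from 4 count tables. The authors quantified reads with Salmon, and the deposited values are estimated counts per gene, with reads assigned to the mm10 annotation. Estimated counts were rounded to whole numbers here, since the tests need counts. Of 27654 gene identifiers, 27244 had a symbol. The 4 tables held libraries of the control diet, of caloric restriction, of the diet experiment and of the corticosterone experiment, with median totals of 13427104, 17386700, 37407547 and 14431389 counts. Genes with few counts per library, such as Bhlhe41 at ZT0, did not pass the filter and were not tested there for GR loss within a diet.

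Analyses used R 4.3.3 with edgeR 4.0.16, limma 3.58.1 and DESeq2 1.42.0. Genes were filtered with filterByExpr (minimum count 10), scaled by TMM and tested with edgeR's quasi-likelihood F test within 1 table, except the interaction of GR loss with diet, which used both tables of a time point. P values were adjusted by Benjamini-Hochberg over all genes tested, with a threshold of 0.05. The SE is the absolute log2 fold change divided by the square root of F, and intervals are 95% intervals from the same test. Levels are CPM after TMM within a table, with 2 counts added before taking logs. Rhythms were tested with JTK_CYCLE (period 24 h, 6 phase offsets, exact null) on variance-stabilised values, and the peak, amplitude and difference of rhythms with a cosine fit in limma. The scripts were tested on simulated data first. Alternatives were DESeq2, other size factors, no filter on low counts, a fit of all libraries of a diet and replicate number as a block. For rhythms they were log2 CPM, a cosine test and JTK_CYCLE with only the genes past the filter. Each library was also left out in turn.

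The genes named are the 7 members in every comparison, Nr3c1 as the targeted gene and Fkbp5 as a known GR target, and lists of core clock genes, PAR bZIP targets, other clock-controlled genes and markers of hepatocytes, Kupffer and myeloid cells, endothelial cells, stellate cells, cholangiocytes, lymphocytes, neutrophils, erythrocytes, adipocytes and exocrine pancreas. The members and lists were chosen with earlier results of these data known. The motifs, and Sphk2 for its overlap with Dbp, were chosen after the values were seen. Among 102 pairs of libraries of the same group, none was a copy of another (lowest chi-square per degree of freedom 10.9). No library was left out of the main analysis.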

Additional observations from a re-analysis of the deposited data

Results flagged for a closer look

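Dbp in WT mice at ZT16 on the control diet had 1 mouse far from the others, at 12.6 CPM in replicate 2 with the other 3 close together. It was the only one found by a test for 1 outlier, run for every member in every group of 4. By chance that test finds about 1 in 20 groups, and the cause of this value was not tested. The same library held pancreas RNA (exocrine marker sum 266 CPM, beside 0.305, 0.974 and 0.143 CPM in the others) and the highest erythrocyte sum of its group.

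The effect of GR loss at ZT12 differed between the diets for Tef (difference of log2 fold changes 0.38) and for Ciart (-1.01), by the edgeR interaction test. Both calls depended on single libraries, as given above.

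The rhythm shape differed between the diets in WT mice for Dbp (limma adjusted p = 4.12e-05), Tef (limma adjusted p = 2.57e-05), Nfil3 (limma adjusted p = 0.0179) and Ciart (limma adjusted p = 2.84e-05). The libraries of the 2 diets stand in separate tables with separate number series, so a batch effect that changed with ZT, if there was one, would enter this test and was not tested.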

How the results depend on the processing

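No result turned its direction under any alternative. For GR loss on caloric restriction the count of calls was 6, from 5 to 6 with 1 library left out, and 4 in 1 fit of all libraries of the diet. For GR loss on the control diet it was 1, and 1 with any library left out, but 4 with DESeq2 and 6 in 1 fit of all libraries of the diet. For the interaction with diet it was 2, and from 0 to 2 with 1 library left out, 1 with other size factors and 1 without the filter on low counts, where Tef was lost. In the diet experiment it was 6, from 5 to 6 with 1 library left out, and 3 when the diets were compared in the time series, where diet and table coincide. With corticosterone it was 1, from 0 to 1 with 1 library left out, and 2 with DESeq2. Rhythmic calls were 25, from 24 to 26 with 1 library left out. The cosine test added 3 calls, and JTK_CYCLE with only the genes past the filter added 1. Rhythm differences with GR loss were 0 on either diet whichever library was left out, and those between diets were 4, from 4 to 5. The cause was not tested.

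Mice of different groups share only a replicate number. With that number as a block, GR loss gave 3 calls on caloric restriction and 2 on the control diet, and the interaction gave 0. Under the block edgeR did not call Ciart at ZT8 (adjusted p = 0.0725), Tef (0.0642) or Nfil3 (0.0869) at ZT12 on caloric restriction, nor Tef in the diet experiment (0.0965), and it added Bhlhe40 at ZT12 on the control diet (0.0281). Correlations of equal numbers ran from -0.122 to 0.115, and in no comparison were all pairs over 0.1. Groups of 3 or 4 mice limit what can be called, and genes with few counts, such as Dbp and Bhlhe41 at ZT0, were partly not tested.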
